A study of Mus musculus with 2 samples.

Results

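The acute-phase proteins are plasma proteins that the liver secretes in changed amounts during inflammation. The genes of 10 of them were examined: the serum amyloid A genes Saa1, Saa2, Saa3 and Saa4, the orosomucoid genes Orm1 and Orm2, haptoglobin (Hp), C-reactive protein (Crp), serum amyloid P component (Apcs) and lipocalin 2 (Lcn2). They were chosen by gene name in the array annotation, which gave 12 probes for the 10 genes out of 41174 probes and 27962 gene names on the array. Saa1 and Saa4 had 2 probes each. All 10 genes passed the filter on dim probes, under which 16730 genes were tested. For description the genes were put in 2 classes, 5 called inducible here (Saa1, Saa2, Saa3, Lcn2 and Orm2) and 5 called constitutive (Saa4, Orm1, Hp, Crp and Apcs), which uninflamed mouse liver also makes. The border is not sharp, since Hp, Orm1 and Apcs are induced in inflammation too, and it was drawn with earlier results of these data known.

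The study asked how the livers of apoE-KO mice respond to dietary cholesterol (Chol). The liver RNA came from male apoE-KO mice on the C57BL/6 strain, which received either normal chow or a high-Chol diet, made of that chow with 1.25% Chol, for 1 week starting at 10 weeks of age. There were 3 independent experiments per diet and 1 single-dye array for each. Mice of both diets carried the apoE deletion, so these arrays hold no mice with intact apoE, and the labels do not say whether an array held RNA of 1 mouse or of several. P-values therefore measure the spread between arrays. In whole liver, less RNA per cell and fewer cells of the type that makes it cannot be told apart.

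The acute-phase response is set off mainly by cytokines that macrophages release. IL-6 and its relatives act on hepatocytes through the receptor subunit gp130 and the factor STAT3, and IL-1 and TNF act through NF-kB. C/EBP factors take part in both arms. Serum amyloid A proteins travel on high-density lipoprotein, and Saa1 and Saa2 are among the most strongly induced transcripts of mouse liver, whereas Saa3 is also made by macrophages and adipocytes. Haptoglobin binds free haemoglobin, orosomucoids carry small lipophilic molecules, and lipocalin 2 withholds iron from bacteria by binding their siderophores. In the mouse, unlike in humans, C-reactive protein is a minor acute-phase reactant and serum amyloid P component is the more responsive pentraxin.

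Signal is given below as log2 relative to the 75th percentile of the array, so that 0 is a spot as bright as that percentile. It sets arrays side by side for a given probe and does not rank different genes. The 3 normal chow arrays and high-Chol array 1 shared slide 1, and high-Chol arrays 2 and 3 were on slide 2, which was scanned at another time with another version of the extraction software. The 75th percentile was 271 to 373 intensity units on slide 1 and 762 to 799 on slide 2, and between 50.5% (normal chow array 1) and 67.2% of spots were well above background. The deletion could not be checked here, because the Apoe probe gave signal on all 6 arrays (1.66 to 3.81 on the log2 scale) and its place relative to the deleted part is not given. Across all genes, limma called 450 higher and 38 lower on the high-Chol diet (Benjamini-Hochberg adjusted p under 0.05). With slide as a block it called 11 higher and 0 lower. The count of higher genes ranged from 42 (without normal chow array 2) to 2316 (without high-Chol array 1) with an array left out, and was 0 with the normexp background, 26 with no filter on dim probes and 2205 with array weights. High-Chol array 1 stood apart most in its diet, more than 2-fold below both other high-Chol arrays for 1128 of 16438 genes (6.86%).

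The probes are 60 bases long, and the sequences below show what the arrays measured for the members on which the results turn. They are printed 5′ to 3′ with no base marked. The array annotation for genome build mm7 places the brighter Saa1 probe (A_52_P318673) at chr7:42916901-42916960 on the minus strand and the dimmer Saa1 probe (A_51_P361650) at chr7:42916998-42917470 on the minus strand. The Saa3 probe (A_51_P337308) lies at chr7:42888862-42888921 on the minus strand, the Lcn2 probe (A_51_P510156) at chr2:32392828-32393072 on the minus strand, and the Orm2 probe (A_51_P141546) at chr4:62797641-62797700 on the plus strand.
Saa1, brighter probe: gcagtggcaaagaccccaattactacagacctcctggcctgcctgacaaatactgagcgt
Saa1, dimmer probe: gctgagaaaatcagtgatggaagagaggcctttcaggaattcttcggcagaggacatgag
Saa3: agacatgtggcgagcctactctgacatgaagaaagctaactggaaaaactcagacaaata
Lcn2: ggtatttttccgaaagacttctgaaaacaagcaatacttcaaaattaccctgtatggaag
Orm2: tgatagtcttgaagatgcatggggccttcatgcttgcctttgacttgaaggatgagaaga

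The annotated intervals of the dimmer Saa1 probe (473 bases), the Lcn2 probe (245 bases) and the Orm1 probe (608 bases) were longer than the probes, whose sequence there is not continuous in the genome. Probes of different members shared runs of at most 9 bases in the 64 pairs compared. Saa1 and Saa2 are close copies, however, the annotation lists a Saa1 transcript for the Saa3 probe too, and the RefSeq table gives Saa1 and Saa2 as older names of each other. How far each probe detects the transcript of a neighbour was not tested, so Saa1, Saa2 and Saa3 are not counted as independent measurements. In RefSeq (assembly GRCm38.p6) the 4 Saa genes lie within 42.3 kb of chromosome 7, Orm1 and Orm2 lie with Orm3 within 21.3 kb of chromosome 4, and Crp and Apcs lie within 197.0 kb of chromosome 1.

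Promoters are shown for the 5 inducible members, of which 4 were high and 1 was level on the high-Chol diet. Each window runs from 250 bases before to 50 bases after the start site that the promoter table uses for the gene, on its own strand (RefSeq, GRCm38.p6). The listed gene span reaches 201 bases further upstream of that site for Saa1 and 3939 bases further for Saa3, whereas for Saa2, Lcn2 and Orm2 the site is the end of the span. Capitals mark matches to the C/EBP motif TTGCNNAA on either strand, where N is any base.
Saa1, chr7:46742931-46743230, minus strand: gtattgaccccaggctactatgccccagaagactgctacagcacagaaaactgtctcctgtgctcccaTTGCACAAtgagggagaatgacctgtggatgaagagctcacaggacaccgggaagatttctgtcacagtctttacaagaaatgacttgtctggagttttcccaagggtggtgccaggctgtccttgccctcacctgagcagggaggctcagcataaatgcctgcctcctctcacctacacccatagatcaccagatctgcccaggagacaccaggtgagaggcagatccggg
Saa2, chr7:46751583-46751882, plus strand: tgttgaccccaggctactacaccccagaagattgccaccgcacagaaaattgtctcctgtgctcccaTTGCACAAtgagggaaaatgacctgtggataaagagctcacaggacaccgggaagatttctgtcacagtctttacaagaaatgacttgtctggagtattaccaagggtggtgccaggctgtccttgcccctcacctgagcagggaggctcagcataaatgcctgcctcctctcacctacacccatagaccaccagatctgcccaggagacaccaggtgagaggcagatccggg
Saa3, chr7:46715627-46715926, minus strand: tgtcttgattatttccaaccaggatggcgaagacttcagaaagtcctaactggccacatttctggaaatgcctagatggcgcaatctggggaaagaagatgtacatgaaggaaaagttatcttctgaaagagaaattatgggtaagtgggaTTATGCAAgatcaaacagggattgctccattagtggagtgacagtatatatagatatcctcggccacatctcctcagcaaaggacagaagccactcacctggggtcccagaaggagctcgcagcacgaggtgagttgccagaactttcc
Lcn2, chr2:32387690-32387989, minus strand: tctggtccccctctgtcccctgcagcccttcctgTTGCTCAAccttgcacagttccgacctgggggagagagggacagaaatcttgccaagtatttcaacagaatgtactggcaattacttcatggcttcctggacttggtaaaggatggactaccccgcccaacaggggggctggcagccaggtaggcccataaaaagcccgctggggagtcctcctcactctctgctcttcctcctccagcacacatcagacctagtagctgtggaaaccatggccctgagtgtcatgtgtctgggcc
Orm2, chr4:63362199-63362498, plus strand: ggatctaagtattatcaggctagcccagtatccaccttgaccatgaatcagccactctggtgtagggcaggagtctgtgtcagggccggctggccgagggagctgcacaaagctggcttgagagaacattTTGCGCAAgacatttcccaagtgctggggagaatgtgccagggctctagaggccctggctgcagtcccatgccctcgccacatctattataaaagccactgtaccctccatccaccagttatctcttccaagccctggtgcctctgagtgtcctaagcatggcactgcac

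The Saa1 and Saa2 windows were identical at 287 of 301 aligned positions (95.3%), and their C/EBP match lay 182 and 183 bases before the start. The Saa3 and Lcn2 windows shared at most 54.2% of aligned positions with them. Among the 8 members with a promoter in the table, 6 held a C/EBP match (Saa1, Saa2, Saa3, Saa4, Orm2 and Lcn2), compared with 10.8% of all 32851 windows of this length. The STAT motif TTCNNNGAA (8.3% of all windows) and the type II IL-6 response element CTGGGAA (11.1%) were found in Apcs alone among the 8, and the NF-kB motif (4.51%) in none. No match overlapped another motif. Orm2, whose signal was level between the diets, and Saa4, whose signal overlapped between them, held the C/EBP letters too. The letters were thus not confined to the members that were higher without overlap.

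The inducible members Lcn2, Saa1, Saa2 and Saa3 had higher signal on the high-Chol than on the normal chow arrays, Lcn2 past the test's threshold, whereas Orm2 and 4 of the 5 constitutive members had differences between −0.20 and 0.01, beside a median of all genes of −0.02, and Crp was at 0.44. Of the 10 members, 1 was called higher (2.69% of all genes tested were) and 0 were called lower (0.227% of all genes). Signal did not overlap between the diets and was higher on the high-Chol diet for 5 of 10 (11.9% of the 16438 genes measured on all arrays), and was lower without overlap for 2 of 10 (14.0% of those genes). The 5 higher were Lcn2, Saa3, Saa1, Saa2 and Crp, and the 2 lower were Hp and Orm1. For all 7, the exact two-sided permutation test gave p = 0.1, the smallest that 3 arrays against 3 allow.

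Lcn2 was the member called by limma, 16.4-fold higher on the high-Chol diet. Lcn2 signal was −1.51, −2.73 and −1.80 on normal chow arrays 1, 2 and 3, against 1.66, 2.07 and 2.33 on high-Chol arrays 1, 2 and 3. Every high-Chol array was far above every normal chow array, and the probe was well above background on all 6. The group mean was −2.01 ± 0.64 (SD, n = 3) for chow and 2.02 ± 0.34 (SD, n = 3) for high-Chol, a log2 difference of 4.03 (standard error 0.34, limma adjusted p = 0.0053). This was the 10th highest difference of the 16730 genes. Within slide 1, Lcn2 was 3.67 higher on high-Chol array 1 than the mean of the normal chow arrays, and with slide as a block the limma adjusted p was 0.083.

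**Figure D1:**
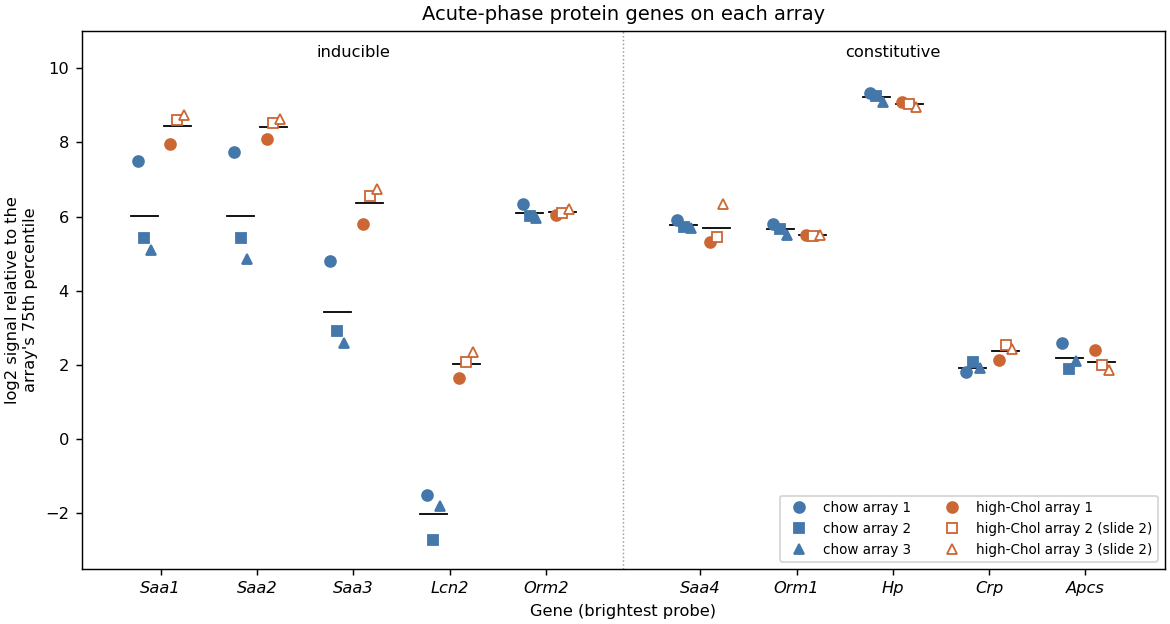
Signal of the 10 members on each array (log2 relative to the 75th percentile of the array, brightest probe of a gene), with normal chow in blue and the high-Chol diet in orange, open symbols for slide 2 and a bar at each diet's mean. Saa1, Saa2 and Saa3 spread over more than 2 log2 units among the normal chow arrays, and the diet means of Lcn2 were 4.03 apart. Normal chow array 1 lay near the high-Chol arrays for Saa1 and Saa2, and between them and the other normal chow arrays for Saa3.

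Saa1, Saa2 and Saa3 were 5.38-fold, 5.33-fold and 7.61-fold higher in mean signal on the high-Chol diet, and none passed the threshold in the comparison of all 6 arrays. Saa1 signal was 7.51, 5.41 and 5.10 with chow and 7.96, 8.60 and 8.74 with high-Chol, in array order (written below as with chow and with high-Chol). Saa2, its close copy, gave 7.74, 5.43 and 4.84 with chow and 8.10, 8.53 and 8.62 with high-Chol. Saa3 gave 4.81, 2.90 and 2.58 with chow and 5.80, 6.54 and 6.73 with high-Chol. For each of the 3 genes normal chow array 1 was far above the other normal chow arrays, and every high-Chol array was still higher. The log2 difference was 2.43 for Saa1 (standard error 0.61, limma adjusted p = 0.1002), 2.41 for Saa2 (standard error 0.69, limma adjusted p = 0.130) and 2.93 for Saa3 (standard error 0.58, limma adjusted p = 0.0505).

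Whether the Saa genes were called depended on the arrays and settings used. The Saa2 signal of normal chow array 1 exceeded the mean of the other 2 normal chow arrays by 2.60, its Saa1 signal by 2.26 and its Saa3 signal by 2.07 on the log2 scale. Without that array, the log2 difference was 3.18 for Saa1, 3.28 for Saa2 and 3.62 for Saa3, with limma adjusted p-values of 0.018, 0.016 and 0.018. Leaving out high-Chol array 1 instead, the lowest of its diet for all 3 genes, gave limma adjusted p-values of 0.048 for Saa1 and 0.022 for Saa3 and 0.077 for Saa2. With all 6 arrays, limma adjusted p-values for Saa3 were 0.025 with median scaling and 0.47 with slide as a block, and array weights called all 3 genes. The dimmer Saa1 probe showed the same pattern, with 6.77, 4.41 and 4.26 with chow, 7.28, 7.87 and 8.02 with high-Chol and a log2 difference of 2.57. With every probe tested by itself, the limma adjusted p was 0.049 for Saa3 and 0.098 and 0.099 for the dimmer and the brighter probe of Saa1.

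Normal chow array 1 was more than 2-fold above both other normal chow arrays for 203 of 16438 genes (1.23%) and more than 2-fold below both for 289 (1.76%), the highest counts among the normal chow arrays (42 and 157 above, 65 and 55 below for arrays 2 and 3). It was that far above them for 3 of the 10 members, which were Saa1, Saa2 and Saa3. It was the highest normal chow array for 9 of 10 members, Crp being the exception. Compared with the mean of normal chow arrays 2 and 3, it was 1.22 higher for Orm3, 0.76 for Lcn2 and 0.58 for Lbp. Il1b was 0.64 higher there and Cd68 0.19, and S100a8 differed by −0.12. The array also had the lowest share of spots well above background, 50.5% against 60.2% and 63.0% on the other normal chow arrays. Whether array quality, or the state of the mouse or mice behind it, has a part in its Saa signal was not tested.

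**Figure D2:**
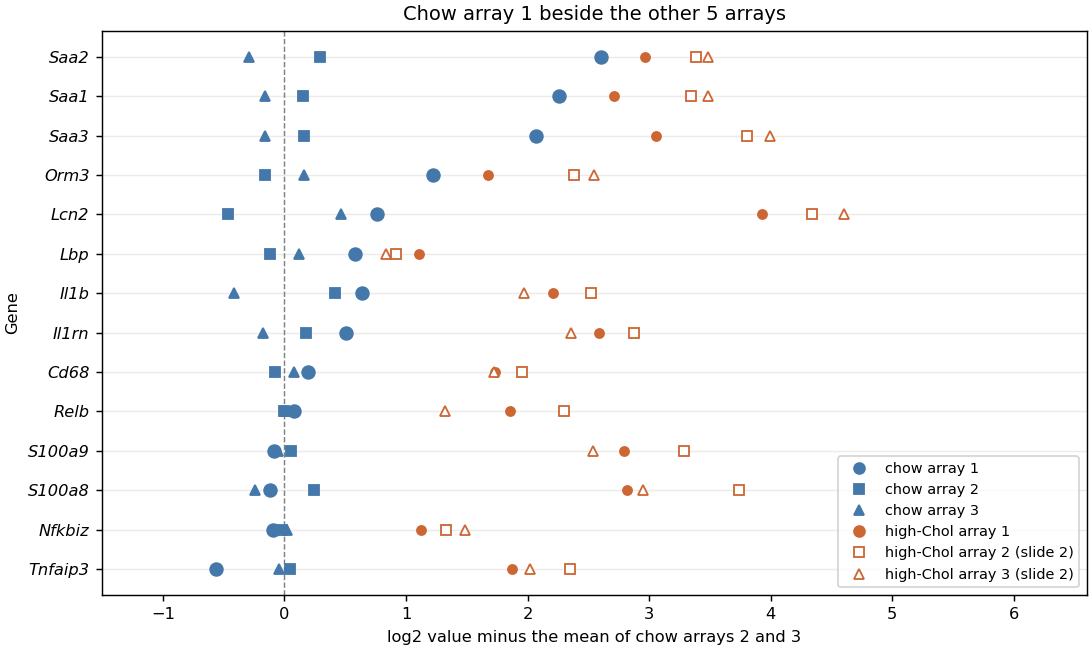
Log2 signal of each array minus the mean of normal chow arrays 2 and 3, for 14 genes, with normal chow in blue and the high-Chol diet in orange (open symbols, slide 2). The large blue circle of normal chow array 1 lay near the high-Chol arrays for Saa2 (2.60) and Saa1 (2.26). It lay between the other normal chow arrays and the high-Chol arrays for Saa3 (2.07), and near the other normal chow arrays for Cd68 (0.19) and S100a8 (−0.12).

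Orm2, an orosomucoid gene taken as inducible, was level between the diets. Its signal was 6.34, 6.01 and 5.96 with chow and 6.05, 6.10 and 6.20 with high-Chol. The diets overlapped, and the log2 difference was 0.01 (standard error 0.16, limma adjusted p = 0.964). With scaling to the median it was −0.22. Its neighbour Orm1 gave 5.80, 5.67 and 5.51 with chow and 5.51, 5.47 and 5.50 with high-Chol. The high-Chol arrays were lower without overlap with the closest arrays nearly equal, and the log2 difference of −0.17 (standard error 0.15, limma adjusted p = 0.506) became 0.02 with quantile normalization.

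None of the 5 constitutive members was called. Hp signal was 9.35, 9.25 and 9.09 with chow and 9.08, 9.04 and 8.96 with high-Chol, lower without overlap, and its log2 difference of −0.20 (standard error 0.15, limma adjusted p = 0.433) turned to 0.18 with quantile normalization. Saa4, which encodes the serum amyloid A made in the absence of inflammation, gave 5.91, 5.73 and 5.70 with chow and 5.31, 5.44 and 6.35 with high-Chol. High-Chol array 3 was the highest of all 6 for Saa4 and the other 2 high-Chol arrays were the lowest, and the log2 difference was −0.08 (standard error 0.28, limma adjusted p = 0.879). The dimmer Saa4 probe had the same order of the high-Chol arrays (4.45, 4.66 and 5.70) and a log2 difference of −0.14.

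The pentraxins differed in sign, with neither called. Crp signal was 1.80, 2.08 and 1.91 with chow and 2.13, 2.53 and 2.44 with high-Chol. Every high-Chol array was above every normal chow array, and the log2 difference was 0.44 (standard error 0.17, limma adjusted p = 0.212), of which 0.21 was seen within slide 1. Apcs gave 2.58, 1.88 and 2.10 with chow and 2.39, 1.99 and 1.86 with high-Chol. These overlapped, with a log2 difference of −0.11 (standard error 0.24, limma adjusted p = 0.807), and within slide 1 the difference was 0.21.

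The median log2 difference was 2.43 over the 5 inducible members (0.01 to 4.03) and −0.11 over the 5 constitutive members (−0.20 to 0.44), beside −0.02 over all 16730 genes. The inducible median was 2.53 above the constitutive median. Within slide 1, where high-Chol array 1 was set against the 3 normal chow arrays, the medians were 2.10 and −0.15. The members were chosen with earlier results known, and no test was made of the classes. Of the inducible members 4 of 5 were higher without overlap (11.9% of all genes were), with Orm2 the exception. Saa1, Saa2 and Saa3, among these 4, are not counted as independent measurements. Among the constitutive members 1 of 5 (Crp) was higher without overlap and 2 of 5 (Hp and Orm1) were lower (14.0% of all genes were).

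**Figure D3:**
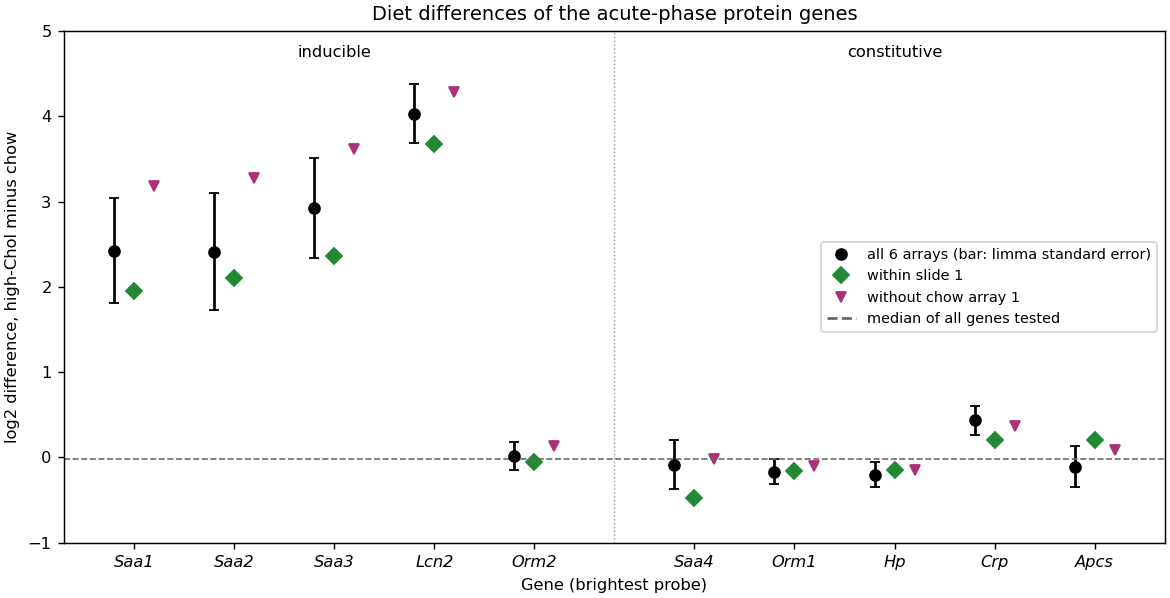
Log2 difference of each member (high-Chol minus normal chow) from all 6 arrays with limma's standard error (black), within slide 1 (green) and without normal chow array 1 (purple), beside the median of all genes tested (dashed). Saa1, Saa2, Saa3 and Lcn2 lay between 1.96 and 4.29 in all 3 comparisons, and the other 6 members between −0.47 and 0.44.

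Within the set, Saa1 and Saa2 (Pearson's r = 0.99 over 6 arrays), Saa1 and Saa3 (0.99) and Saa2 and Saa3 (0.98) followed each other most closely, Hp and Orm1 gave 0.94, and Lcn2 and Saa3 gave 0.93. These values describe 6 arrays in 2 diets on 2 slides, and the points share the scaling of each array. The 5 genes outside the set whose signal was most like the mean standardised signal of the inducible members, among 3764 genes with a range of at least 1 log2 unit, were Ehd4 (r = 0.99), Trpv2 (0.99), Il4i1 (0.99), Csf2rb1 (0.98) and Slc1a4 (0.98). The mean they were matched to was itself raised on normal chow array 1, so that a raised signal there follows from how they were chosen. Ehd4, for example, gave 1.95, 1.32 and 1.32 with chow and 2.06, 2.10 and 2.33 with high-Chol. An r above 0.9 was reached by 118 genes.

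Of 21 other positive acute-phase genes, 16 had a negative difference (median −0.41). From these 21 limma called 0, beside 2.69% called higher and 0.227% called lower among all genes. Without high-Chol array 1 it called 3 higher and 5 lower, without normal chow array 1 it called 1 higher, with array weights 4 higher and 6 lower, with the trended and robust prior 2 higher and 1 lower, and with median scaling 1 higher. Of the 20 measured on all arrays, signal was lower without overlap for 8 (14.0% of all genes) and higher without overlap for 4 (11.9% of all genes). Orm3, the third orosomucoid gene, was highest at 1.79 (standard error 0.39, limma adjusted p = 0.067), with 0.93, −0.45 and −0.13 with chow and 1.39, 2.09 and 2.26 with high-Chol. Its normal chow array 1 was again the highest of its diet. Cd14 (0.82), which presents lipopolysaccharide to its receptor, Lbp (0.76), which carries it in plasma, and Steap4 (0.67), a metalloreductase, were the others without overlap. The complement gene C4b had a difference of −0.83 (standard error 0.22, limma adjusted p = 0.111), and that of metallothionein 2 (Mt2), −1.01, rested on 1 high-Chol array because its spots on the other 2 were marked as outliers.

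The 8 negative acute-phase genes, whose products decline in inflammation, had a median log2 difference of −0.34, with 7 negative and 0 called (1 higher and 1 lower without high-Chol array 1, 1 higher and 2 lower with array weights). Among all genes tested 2.69% were called higher and 0.227% lower. Of the 6 measured on all arrays, 4 were lower without overlap (Alb, Rbp4, Ahsg and Fetub; 14.0% of all genes) and 1 was higher (11.9% of all genes). Serpina6, which encodes corticosteroid-binding globulin, was at −0.63, Apoa1, the main protein of high-density lipoprotein, at −0.57 and Fetub, a fetuin, at −0.57. Serpina6 was measured on 2 high-Chol arrays only (5.26 on both), inside the range of the normal chow arrays (4.95, 6.46 and 6.26). Transthyretin (Ttr), a further member of that list, was 0.48 higher (standard error 0.18, limma adjusted p = 0.202), and was the 1 without overlap. Within slide 1 the medians were −0.20 for the positive and −0.32 for the negative acute-phase genes, and with quantile normalization −0.21 and −0.12. Of 7 hepatocyte markers tested, limma called 0 (median −0.26), and G6pc was higher without overlap (1.19, limma adjusted p = 0.104). The summed signal of the 7, in multiples of the 75th percentile, was 1009 to 1238 with chow and 974 to 1001 with high-Chol. The part of this in the differences of hepatocyte transcripts was not tested.

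Of 22 genes of IL-1, TNF and NF-kB signalling, limma called 8 higher and 0 lower, beside 2.69% and 0.227% of all genes tested. The median of the 22 was 0.29, also with Tnf at the bound given below. Of the 8, Tnf was well above background on 0 normal chow arrays, and Il1a and Irak3 on 2 each. With only probes well above background on all 6 arrays, which leaves these 3 genes out, 5 were called. With slide as a block 1 of the 22 (Tnf) was called, with no filter on dim probes 1, and with the normexp background 0. Without normal chow array 2 the count was 2, without high-Chol array 2 it was 3, without normal chow array 1 or 3 or high-Chol array 3 it was 5, and without high-Chol array 1 it was 10. The cytokines Il1b (log2 difference 2.02, standard error 0.30, limma adjusted p = 0.020) and Il1a (1.82, limma adjusted p = 0.024) rose. Tnf was not well above background on any normal chow array and rose by a factor of at least 3.74 (limma adjusted p = 0.0025), a bound against the lowest signal well above background on each array. Il1rn, the antagonist of the IL-1 receptor, rose by 2.44, and the NF-kB subunit Relb by 1.80. Nfkbiz (1.34), a nuclear partner of NF-kB that takes part in inducing Lcn2 and Il6, the NF-kB inhibitor Tnfaip3 (2.27) and Irak3 (0.95), a brake on the IL-1 receptor, were called as well. The receptors Il1r1 (−0.88) and Tnfrsf1a (0.24) and the subunit Rela (0.03) were not.

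Of 15 genes of the IL-6 family tested, 11 had a negative difference (median −0.19). From these 15 limma called 0, beside 2.69% called higher and 0.227% called lower among all genes. Without high-Chol array 1 it called 1 higher and 1 lower, with array weights 1 higher and 2 lower, and with the trended and robust prior 1 lower. Il6 signal was −2.95, −3.05 and −3.08 with chow and −2.65, −1.44 and −1.47 with high-Chol. The diets did not overlap, but high-Chol array 1 lay close to the normal chow arrays, and the log2 difference of 1.17 (standard error 0.33, limma adjusted p = 0.126) was 0.38 within slide 1. The receptor genes Lifr (−1.25, limma adjusted p = 0.083) and Il6ra (−0.78, limma adjusted p = 0.157) had lower signal without overlap, and Pias3, an inhibitor of STAT3, was at −0.72. Socs3, the feedback inhibitor that STAT3 induces, was at −0.10 and overlapped between the diets. The difference in counts between the 2 lists was not tested.

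**Figure D4:**
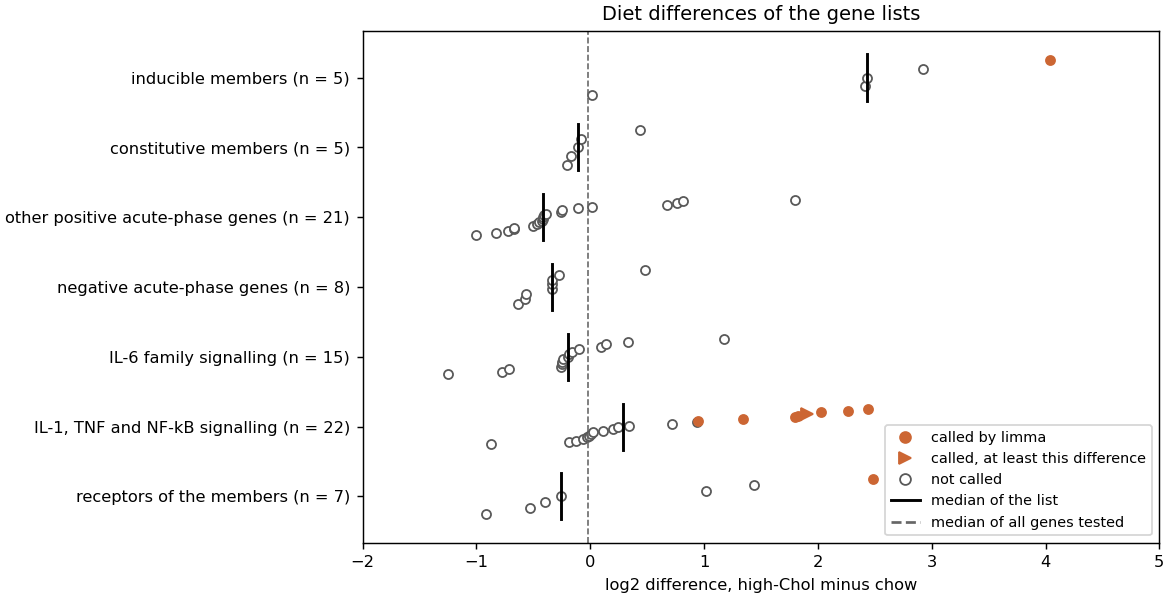
Log2 differences (high-Chol minus normal chow) of the genes in 7 lists, with filled points for genes called by limma, a black bar at the median of each list and a dashed line at the median of all genes tested. A triangle marks Tnf at the bound of its difference. The other 7 called genes of IL-1, TNF and NF-kB signalling lay between 0.95 and 2.44. In this comparison 0 of 15 IL-6 family genes and 0 of 21 other positive acute-phase genes were called. Among all genes tested 2.69% were called higher and 0.227% lower.

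Receptors that bind members or their cargo were tested for 7 of 8 genes, with a median log2 difference of −0.26 (0.36 within slide 1) and 4 negative. Among these limma called 1 higher, beside 2.69% of all genes tested. It was Tlr2, a receptor of serum amyloid A, with a log2 difference of 2.48 (standard error 0.17, limma adjusted p = 0.0031). Tlr2 signal was −0.86, −0.94 and −1.02 with chow and 1.27, 1.71 and 1.64 with high-Chol, well apart. Fpr2, another receptor of serum amyloid A, was higher without overlap (1.02, limma adjusted p = 0.065). Cd163, the macrophage receptor of the haptoglobin-haemoglobin complex, was lower without overlap (−0.91, limma adjusted p = 0.155). Cd36, a scavenger receptor (1.44, limma adjusted p = 0.160), and Slc22a17, a receptor of lipocalin 2 (−0.39), overlapped. So did Scarb1 (−0.26, and 0.36 within slide 1) and Lrp2 (−0.53), which are on the same list.

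Some markers of macrophages and neutrophils, which also make Saa3 and Lcn2, were called higher on the high-Chol diet. Of 10 macrophage markers tested, limma called 5 higher, beside 2.69% of all genes tested. These were Cd68, Cd5l, Marco, Lyz2 and Ccr2, the last well above background on 1 normal chow array. The summed signal of 8 macrophage markers was 157 to 186 with chow and 392 to 527 with high-Chol. Of 6 neutrophil markers tested, limma called 3 higher, beside the same 2.69% of all genes. These were S100a8, S100a9 and Retnlg, the last well above background on 0 normal chow arrays. The summed signal of the 6 was 2.06 to 2.39 with chow and 10.7 to 16.9 with high-Chol. With slide as a block or the normexp background 0 of both lists were called, and with no filter on dim probes 0 of the macrophage and 2 of the neutrophil markers. With only probes well above background on all 6 arrays, which leaves out Ccr2 and Retnlg, 4 macrophage and 2 neutrophil markers were called. With an array left out the macrophage count was 1 (without high-Chol array 2), 2 (without normal chow array 2 or 3 or high-Chol array 3), 4 or 6, and the neutrophil count was 2 or, without high-Chol array 1, 6. The sums rested on few bright probes, since S100a9 made up 74.7% to 83.0% of the neutrophil sum with high-Chol (57.8% to 62.5% with chow), and Lyz2 and Cd5l together made up 75.1% to 84.0% of the macrophage sum (71.0% to 76.0% with chow). The macrophage marker Csf1r (0.28) and the neutrophil granule gene Mpo (0.48, and 0.03 within slide 1) overlapped between the diets. Of the other granule genes, Ltf (2.18, limma adjusted p = 0.126) was higher without overlap and was well above background on 1 normal chow and 3 high-Chol arrays, and Ngp, Camp and Elane were well above background on 0 arrays. Of the 5 adipocyte markers, Cfd was well above background on all 6 arrays (log2 difference 1.15, −1.07 within slide 1) and Plin1 on 1 normal chow and 3 high-Chol arrays (0.89), both with overlap, Retn on 2 arrays, and Adipoq and Lep on 0. Normal chow array 1, with its high Saa signal, had a summed macrophage signal of 186 beside 169 and 157 on the other normal chow arrays, and a summed neutrophil signal of 2.06 beside 2.39 and 2.28. The part of these cells in the signal of Saa3 and Lcn2 was not tested.

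**Figure D5:**
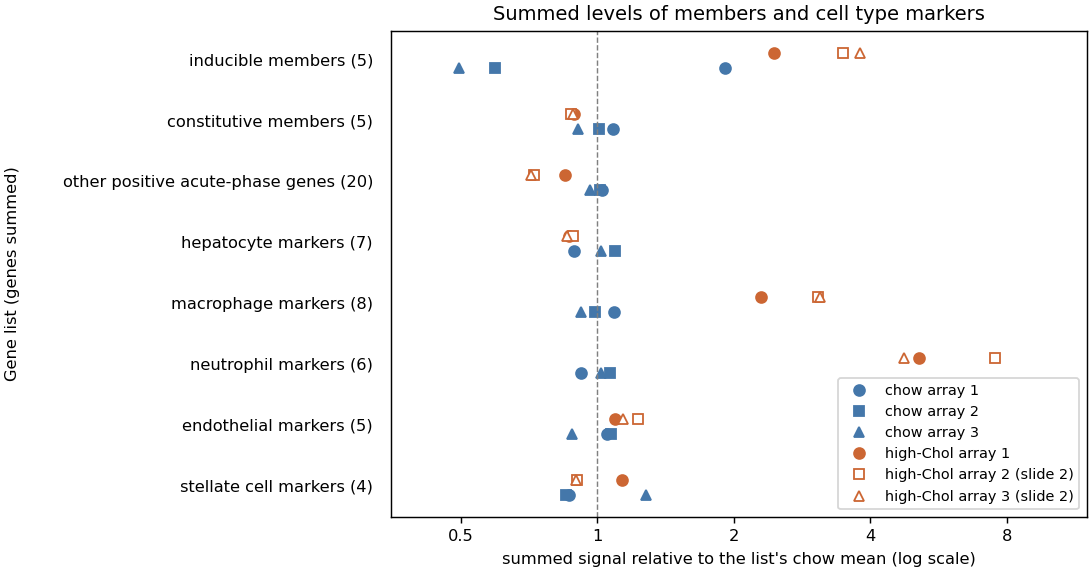
Summed signal of gene lists on each array, relative to the mean of the normal chow arrays for that list (log scale, normal chow blue, high-Chol diet orange, open symbols slide 2, number of genes summed in brackets). The inducible members (132 to 505 multiples of the 75th percentile with chow, 650 to 1005 with high-Chol) spread widely among the normal chow arrays but did not overlap between the diets. The macrophage and neutrophil sums, carried mostly by Lyz2 and Cd5l and by S100a9, did not overlap either.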

How the data were processed

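Liver RNA of 6 samples was copied into cRNA labelled with Cy3 and hybridised to single-dye Agilent mouse arrays. Scanner output was deposited by the authors, in which intensity values had been background-subtracted per spot by Agilent Feature Extraction (version 9.5 on slide 1 and 9.1 on slide 2, per the file headers) and were not yet normalized between arrays. A deposited table with 1 log2 value for each probe in each diet, already normalized and filtered, served as an alternative. Set against the scanner output its diet differences ran the same way with a slope of 1.00, while its centring differed and its normalization is not given in the sources used here. Its columns have medians of −0.00 (normal chow) and −0.27 (high-Chol diet).

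Here log2 of the processed signal was taken minus each array's 75th percentile over 43379 non-control spots. Outlier spots (75 to 196 per array) were left out. Probes entered when every array of either diet had them well above background, and each gene was represented by its brightest probe. The diet comparison used limma 3.58.1 under R 4.3.3 (lmFit, eBayes, Benjamini-Hochberg over 16730 genes, threshold 0.05). On simulated data for this comparison with 16438 genes, 31 of 100 simulated 2-fold changes and 72 of 100 simulated 4-fold changes were called, beside 7 false calls. The simulation drew independent noise for each gene, with no slide effect and no shift shared by the genes of an array. It therefore does not show how many calls are false in the real arrays, where slide and diet are partly confounded. The number of arrays limits the precision.

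The members and gene lists were chosen with earlier results of these data known, and so were the classes. The naming rule took from each other list the genes called, or else up to 4 with the largest difference, and Il6, Il1b and Tnf. Lbp, Steap4, Socs3, Il1r1, Tnfrsf1a, Rela, Fpr2, Cd163, Cd36, Slc22a17, Scarb1, Lrp2, Stat3, Ahsg, Alb, Rbp4, Fga and the markers not called fall outside it and were named after their values were seen. Lists for endothelial, stellate cell and cholangiocyte markers were also counted, of which limma called 0 of 5, 1 of 4 (Col1a1) and 0 of 4, and 0 of 2 adipocyte markers tested. Among all genes tested 2.69% were called higher and 0.227% lower. Alternatives were a normexp background (offset 50), median scaling with a floor of 5, quantile normalization, 2 other filters, other ways to use several probes, a slide block, array weights, a trended and robust prior, the methods' t-test, the authors' values, other class borders and each array left out in turn. Sequences came from the array annotation and RefSeq and were read with pandas 2.3.3 (Python 3.11.15), and matplotlib 3.10.9 made the figures.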

Additional observations from a re-analysis of the deposited data

How the results depend on the processing

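No paired analysis was possible because nothing in the array files ties an array of one diet to an array of the other. The inducible median and its distance from the constitutive median moved by less than their pooled SD between arrays (0.93 and 0.84) under all alternatives. That SD includes the high Saa signal of normal chow array 1, without which the inducible median was 3.28. The prior and the t-tests change only p-values, and median scaling adds a constant per array to the members, so these could not move the distance. It was also 2.53 with both other filters and in the authors' values. The number of members called higher, 1 of 10, was 0 with the normexp background, slide as a block or the methods' t-test after Benjamini-Hochberg, 2 with median scaling, the filter for all 6 arrays, the trended and robust prior or every probe by itself (of 12 probes), 4 with array weights or the unadjusted methods' t-test, and 1 to 4 with each array left out in turn (4 without normal chow array 1, 3 without high-Chol array 1). The normexp estimate was distorted by 11 spots far below their local background on 3 arrays, where the median corrected signal was 227, 644 and 1330 against 95.8, 94.0 and 175 without those spots. Leaving them out, an alternative chosen after seeing the data, gave 2 members called higher, with Lcn2 at 3.33. The call of Lcn2 was lost under the block (adjusted p = 0.083), the adjusted methods' t-test (0.0893) and normexp on all spots (2.61) and kept under the other alternatives. The methods' t-test after Benjamini-Hochberg called 4 of all genes higher (450 with limma) and 0 of the IL-1, TNF and NF-kB genes and of the macrophage and neutrophil markers.

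The constitutive median, −0.11, was 0.18 with normexp, 0.0039 with normexp without those spots, −0.34 with median scaling, 0.11 with quantile normalization and −0.35 in the authors' values, beside a median of all genes of −0.11, −0.11, −0.26, −0.018 and −0.28. Signs turned, among genes not called, for Orm1 (0.18 with normexp, 0.0039 without those spots, 0.016 with quantile normalization), Saa4 (0.21, 0.037 and 0.11 under the same, 0.096 with array weights, −0.41 to 0.11 with an array left out), Hp (0.11 with normexp, 0.18 with quantile normalization), Orm2 (−0.22 with median scaling, −0.050 under the block, −0.056 to 0.13 with an array left out), Apcs (0.14 with normexp, 0.21 under the block, −0.26 to 0.090 with an array left out), Stat3 (0.058 with normexp, 0.19 under the block, −0.47 to 0.046 with an array left out), Ahsg (0.031 with normexp), Alb (0.0076 with quantile normalization), Fga (0.097 under the block), Socs3 (−0.32 to 0.27 with an array left out) and Il6 (−0.074 with normexp). With normexp on all spots the called genes Il1a (−0.068), Irak3 (−0.25) and Tnf (−0.19) turned as well. The cause was not tested beyond those spots.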
